A study of Mus musculus with 4 samples.

Results

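The AP-1 and BATF transcription factors followed here are 10 genes, Fos, Fosb, Fosl1, Fosl2, Jun, Junb, Jund, Batf, Atf3 and Maff, measured in dendritic cells (DC) from bone marrow, of the C57BL/6 mouse strain. They were taken by name: every probe set whose only annotated symbol was one of these genes was included, which gave 10 of 12393 genes and 12 of the 22626 probe sets tested (a probe set is the group of short array probes that reports on 1 transcript region). All 10 genes were measured, Fosl1 and Jun by 2 probe sets each and the others by 1. Immature DC were compared with DC after modulation by NKT (natural killer T) cells, which are T cells that recognise lipids presented on CD1d, on 2 arrays each. Per the design text the RNA was that of CD11c cells, CD11c being an integrin of DC. No transgene, dose or time is given in the sources used here, and nothing says whether the 2 arrays of a group came from separate cultures, so p-values cover no more than the spread of these 4 arrays, possibly a technical one.

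AP-1 is a family of dimeric transcription factors with a basic region that contacts DNA and a leucine zipper that joins the partners. FOS proteins (FOS, FOSB, FOSL1 and FOSL2) bind DNA mostly as dimers with a JUN protein (JUN, JUNB or JUND), and JUN proteins can also pair with one another. BATF and ATF3 belong to the same structural class: BATF pairs with JUN proteins, lacks a transactivation domain and binds composite DNA elements together with IRF4 or IRF8, while ATF3 is a stress-induced factor that limits cytokine transcription in macrophages and DC. MAFF is a small MAF protein, which has the zipper but no activation domain. Fos, Jun, Junb, Fosb and Atf3 are classic immediate early genes, transcribed within minutes of receptor signalling, and their RNA is short-lived.

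In NKT-modulated DC the RNA of 4 members rose: Atf3 by 3.99-fold, Batf by 1.99-fold, Maff by 1.88-fold and Junb by 1.57-fold. No member fell past the threshold, an adjusted p of 0.05 in a limma fit over all probe sets. At the adjusted threshold 5.36% of all 22626 probe sets were called higher and 5.7% lower, 11.1% in either direction. At an unadjusted p under 0.05 in that fit, 7 of the 12 member probe sets were higher and 2 lower. The share of all probe sets at the unadjusted level was not computed, so that count has no background here. No FOS gene passed the threshold; Fos had a log2 change of -0.39 and Fosb of -0.73, and the brighter Fosl1 probe set of 1.73. The deposited signals of the 2 groups did not overlap for 10 of the 12 member probe sets, 8 with higher and 2 with lower signals in NKT-modulated DC; this held for 53.5% of all probe sets. After quantile normalization it held for 9 of the 12, again against 53.5% of all, since Jund then overlapped. The median log2 change of the 12 was 0.41, beside -0.03 over all probe sets.

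**Figure D1:**
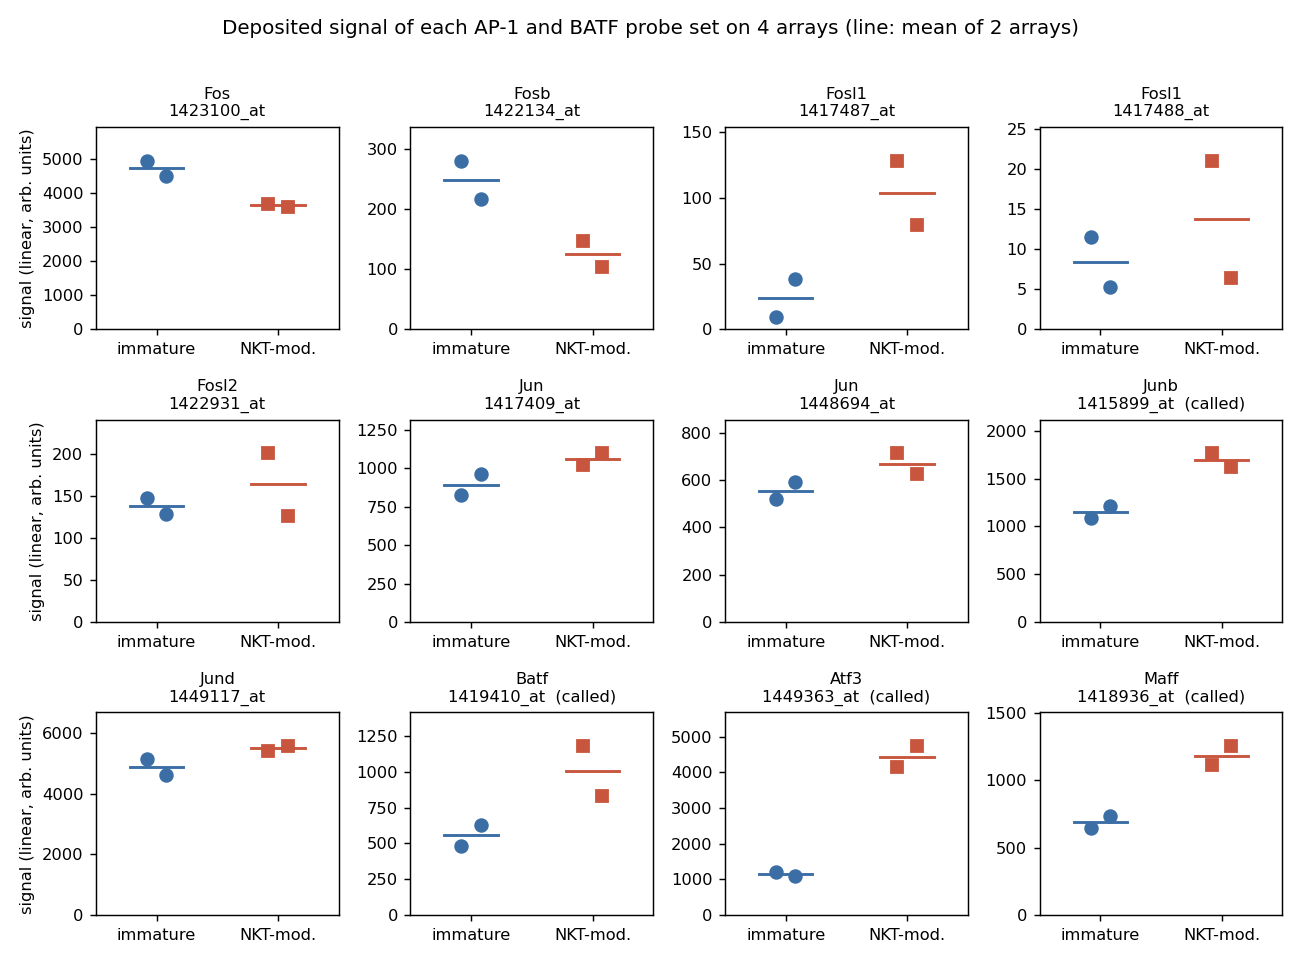
Deposited linear signal (vertical axis, from 0, arbitrary units) of each of the 12 probe sets in immature DC (blue circles) and NKT-modulated DC (red squares), 1 point per array, with a line at the mean of the 2 arrays; scales differ between panels. The groups are wide apart for Atf3, at 1203 and 1099 against 4154 and 4734, and overlap for Fosl2 and the dimmer Fosl1 probe set.

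The 4 arrays held 22690 rows, of which 64 were controls. Pairs of arrays correlated across probe sets, on the log2 scale, at 0.985 and 0.987 inside a group and at 0.960 to 0.965 across groups. Of all probe sets, 1212 were called higher and 1289 lower in NKT-modulated DC, so that 48.5% of calls were higher; without further normalization of the deposited signals these were 895 and 1550, or 36.6%. The 3′ to 5′ signal ratio of the Gapdh controls, a sign of RNA or cDNA integrity, was 1.76 and 1.44 in immature DC and 1.87 and 1.98 in NKT-modulated DC; that of Actb lay between 1.09 and 1.18 on all 4 arrays. Its part in the results below was not tested.

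The proximal promoters of the 4 genes that rose are shown with those of Fos, Jun and Fosb, so that members that rose can be set beside members that did not. Jund and Fosl2, which were not called either, are not printed, and of the Maff windows only the middle one is. Each line gives the 120 bases before the annotated transcript start, 5′ to 3′ on the gene's own strand, from RefSeq on GRCm38.p6, and capitals mark the letters TGACGT, TGACGTCA or TGACATCA on either strand. The stretches lie at chr1:191183334-191183453 (- strand) for Atf3, chr15:79347400-79347519 (+ strand) for Maff, chr12:85686600-85686719 (+ strand) for Batf, chr12:85473770-85473889 (+ strand) for Fos, chr4:95052223-95052342 (- strand) for Jun, chr8:84978749-84978868 (- strand) for Junb and chr7:19310046-19310165 (- strand) for Fosb.
Atf3: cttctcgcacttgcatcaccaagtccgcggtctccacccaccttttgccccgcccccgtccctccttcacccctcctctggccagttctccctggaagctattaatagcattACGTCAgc
Maff: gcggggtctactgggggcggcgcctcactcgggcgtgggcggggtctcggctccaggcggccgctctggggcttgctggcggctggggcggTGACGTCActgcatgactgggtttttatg
Batf: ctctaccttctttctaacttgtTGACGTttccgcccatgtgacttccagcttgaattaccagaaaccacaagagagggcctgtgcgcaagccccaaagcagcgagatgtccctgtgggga
Fos: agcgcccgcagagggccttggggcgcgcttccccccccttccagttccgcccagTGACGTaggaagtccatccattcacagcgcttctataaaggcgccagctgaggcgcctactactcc
Jun: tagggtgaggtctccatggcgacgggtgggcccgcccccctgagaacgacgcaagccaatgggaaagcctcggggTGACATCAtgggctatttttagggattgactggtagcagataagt
Junb: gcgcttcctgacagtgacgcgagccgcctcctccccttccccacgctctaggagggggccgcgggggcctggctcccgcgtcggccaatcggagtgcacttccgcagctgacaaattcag
Fosb: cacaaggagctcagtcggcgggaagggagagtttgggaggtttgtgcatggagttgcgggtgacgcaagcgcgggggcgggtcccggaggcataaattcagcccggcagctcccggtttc

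The letters TGACGT, which form the core of the cyclic AMP response element bound by ATF, CREB and some AP-1 dimers, were present in the windows of Atf3, Maff, Batf and Fos. In Atf3 the match was on the opposite strand (printed ACGTCA) at -8 to -3 relative to the start, in Batf at -98 to -93 and in Fos at -66 to -61. Maff has 3 annotated starts, and the middle window held the full palindrome TGACGTCA at -29 to -22, of which TGACGT is part. TGACATCA, the variant AP-1 element of the Jun promoter, stood at -45 to -38 in Jun and at -45 to -38 in the third window of Maff, which is not printed. No window of a member held TGAGTCA, the classic AP-1 element. Windows ran from 250 bases before to 50 after the start, and both strands were searched. Among all 32851 such windows, 7.51% held TGACGT, 1.79% TGACGTCA, 3.62% TGACATCA and 5.2% TGAGTCA. Of the members, 9 genes with 11 windows were in the table, and 4 of the 11 windows held TGACGT. The letters of the gamma-activated STAT element, TTCNNNGAA, were found in 1 member window, at 28 to 36 in the middle window of Maff, and in 8.3% of all windows. The CArG box bound by SRF was in no member window (1.63% of all). Bases more than 250 before the start were not searched, so a CArG box there would be missed. An NF-kB consensus was in 4 of the 11 (16.0% of all), those of Fos, Fosb, Fosl2 and the third window of Maff. Junb and Fosb held none of the capital-marked letters. Neither did Jund, Fosl2 or the first window of Maff, which are not printed. A match is a description of the letters and not evidence of binding.

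Atf3 had the steepest called change of the 10 genes. Its probe set (1449363_at) read 1203 and 1099 in immature DC and 4154 and 4734 in NKT-modulated DC. Both NKT-modulated arrays were thus over 3 times as bright as either immature array, a gap far wider than that between replicates. The log2 change was 2.00 ± 0.14 (SE; each group has n = 2 here and below), with adjusted p = 7.23e-04, and 99.03% of all probe sets had a smaller change. Atf3 passed under all 11 alternative settings tried, with adjusted p between 4.59e-05 and 0.0205 and changes between 1.86 and 2.17. At the stricter adjusted p of 0.001 it was the only member probe set called.

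Maff, the small MAF member, read 644.6 and 737.3 in immature DC and 1115 and 1255 in NKT-modulated DC (probe set 1418936_at). The 4 arrays separated by group without overlap. Its log2 change was 0.91 ± 0.11 (adjusted p = 0.00452), and it too passed under all 11 alternatives, with a highest adjusted p of 0.0486 when the variance was fitted without an intensity trend. As in Atf3, the NKT-modulated array with the higher signal was replicate 2.

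Batf, the partner of IRF4 and IRF8 on composite elements, read 483.2 and 630.3 in immature DC and 1181 and 834.3 in NKT-modulated DC (probe set 1419410_at). The groups did not overlap, but the 2 NKT-modulated arrays lay further apart, as a ratio, than those of Atf3 or Maff. Here replicate 1 was the higher. The log2 change was 0.99 ± 0.17, with adjusted p = 0.0169. It kept its direction under all 11 alternatives and lost its call under 3: without immature replicate 1 the change was 0.91 (adjusted p = 0.0753), without NKT-modulated replicate 1 it was 0.76 (adjusted p = 0.0701), and without the intensity trend it had adjusted p = 0.0809.

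Of the JUN genes, whose proteins are the partners of FOS and BATF, Junb passed the threshold and Jun and Jund did not. Junb (1415899_at) read 1086 and 1216 in immature DC and 1763 and 1625 in NKT-modulated DC, a log2 change of 0.65 ± 0.09 (adjusted p = 0.00676). All readings of NKT-modulated DC were above those of immature DC. The call was lost without NKT-modulated replicate 1 (change 0.60, adjusted p = 0.0637) and without the intensity trend (adjusted p = 0.0712), and was kept under the other 9 alternatives. Jun, the founding member, was measured by 2 probe sets that moved alike. The brighter, 1417409_at, read 823.1 and 960.6 against 1023 and 1096, and the dimmer, 1448694_at, 520.7 and 591.3 against 713 and 626.4. Neither overlapped between groups, and their log2 changes were 0.39 ± 0.10 (adjusted p = 0.0604) and 0.44 ± 0.11 (adjusted p = 0.0596), just outside the threshold. After cyclic loess normalization both passed, with adjusted p = 0.0374 and adjusted p = 0.0419; without further normalization their changes were 0.25 and 0.26, with adjusted p = 0.317 and adjusted p = 0.340.

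Jund, the JUN member with the steadiest expression in many cells, read 5148 and 4606 in immature DC and 5417 and 5561 in NKT-modulated DC (1449117_at). The deposited signals did not overlap, but after quantile normalization the immature replicate 1 lay above the NKT-modulated replicate 1. Its log2 change was 0.14 ± 0.11, with adjusted p = 0.530 and a 95% interval from -0.14 to 0.42, which includes 0. Without immature replicate 2 the change was -0.0018.

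The FOS genes gave no call in either direction. Fos (1423100_at) read 4944 and 4504 in immature DC and 3680 and 3585 in NKT-modulated DC. Every NKT-modulated reading was below every immature one, the opposite order to Jun, Junb and Jund. The log2 change was -0.39 ± 0.11 (adjusted p = 0.0756), with a 95% interval from -0.64 to -0.13 before adjustment over the array. Without immature replicate 2 the change was -0.53 with adjusted p = 0.0310, and with probe sets of mean signal under 64 left out the adjusted p was 0.0323. Under the other 9 alternatives it did not pass, and its direction was the same under all 11.

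Fosb (1422134_at), the close relative of Fos, read 280.7 and 217.4 in immature DC and 147.1 and 103.9 in NKT-modulated DC. Again the groups did not overlap, with NKT-modulated DC lower. Its log2 change was -0.73 ± 0.26 (adjusted p = 0.143) and lay between -0.97 and -0.47 over the 11 alternatives, with none of them under the threshold. 6.06% of all probe sets had a lower change than Fosb and 18.13% a lower change than Fos.

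Fosl1, which encodes FRA-1, was dim. Its brighter probe set (1417487_at) read 9.65 and 38.4 in immature DC and 129 and 79.6 in NKT-modulated DC. The 2 immature readings differed more from each other, as a ratio, than the 2 NKT-modulated ones. The log2 change of 1.73 ± 0.44 had adjusted p = 0.0584, and a 95% interval from 0.67 to 2.79. It depended on the pseudocount, at 2.43 with 1 and 0.99 with 64 in place of 16, and it passed under 5 of 11 alternatives, among them the fit without immature replicate 2 (change 2.25, adjusted p = 0.0372). The other probe set (1417488_at) read 11.6, 5.27, 21.1 and 6.40 on the 4 arrays, near the bottom of the range, with a change of 0.24 ± 0.30 (adjusted p = 0.689), so the 2 probe sets of Fosl1 did not give the same picture. Fosl2, which encodes FRA-2, read 148.2 and 129.3 in immature DC and 201.3 and 127.1 in NKT-modulated DC (1422931_at). The groups overlapped, and the change was 0.37 ± 0.26 (adjusted p = 0.450), with a 95% interval from -0.26 to 1.00.

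**Figure D2:**
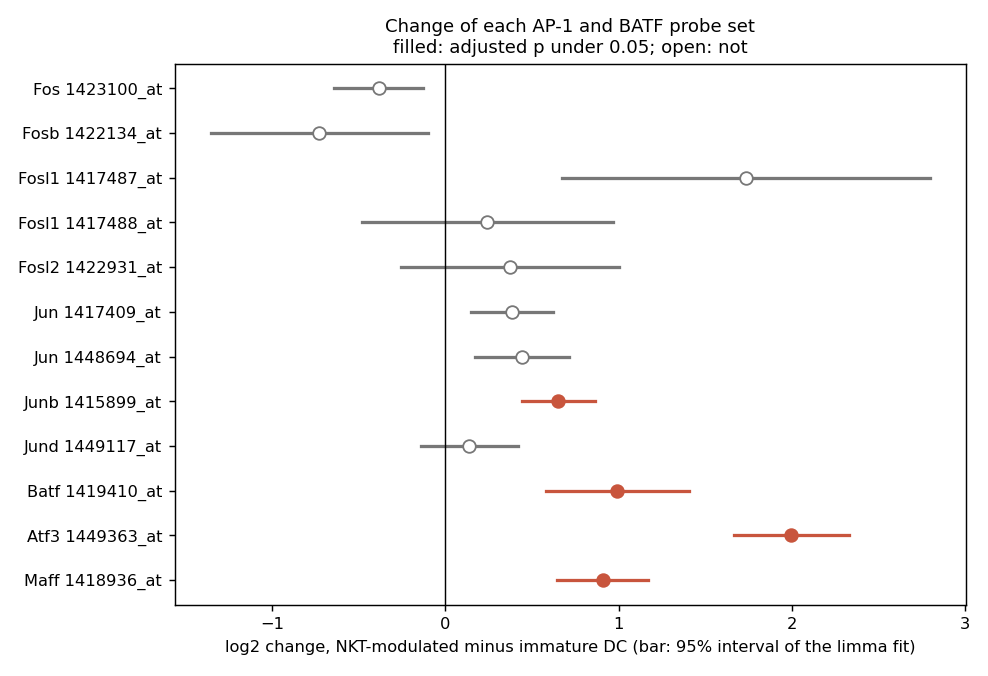
Log2 change of NKT-modulated over immature DC (horizontal axis) for each of the 12 probe sets, with the 95% interval of the limma fit as a bar; filled red points have adjusted p under 0.05. Atf3 at 2.00, Batf at 0.99, Maff at 0.91 and Junb at 0.65 are filled, and Fos at -0.39 and Fosb at -0.73 lie left of 0.

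The ratio of signals within an array does not depend on how arrays are scaled against each other, and is given for Fos as a description, chosen after the values were seen. The Fos to Jun signal ratio was 6.01 and 4.69 in immature DC and 3.60 and 3.27 in NKT-modulated DC, and the Fos to Junb ratio 4.55 and 3.70 against 2.09 and 2.21. Both ratios were lower on the NKT-modulated arrays, an order already fixed by the signals of the members given above, so they add no independent evidence and were not tested.

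Alternatives in normalization, pseudocount, filter, variance model and arrays changed how many members were called. Between 2 and 7 member probe sets were called higher and at most 1 lower. At the threshold of 0.05 Atf3 and Maff were called under all 11 alternatives, Junb under 9 of 11 and Batf under 8 of 11. The 10 brightest-probe-set values of the 10 genes kept their sign under all of them, other than Jund.

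**Figure D3:**
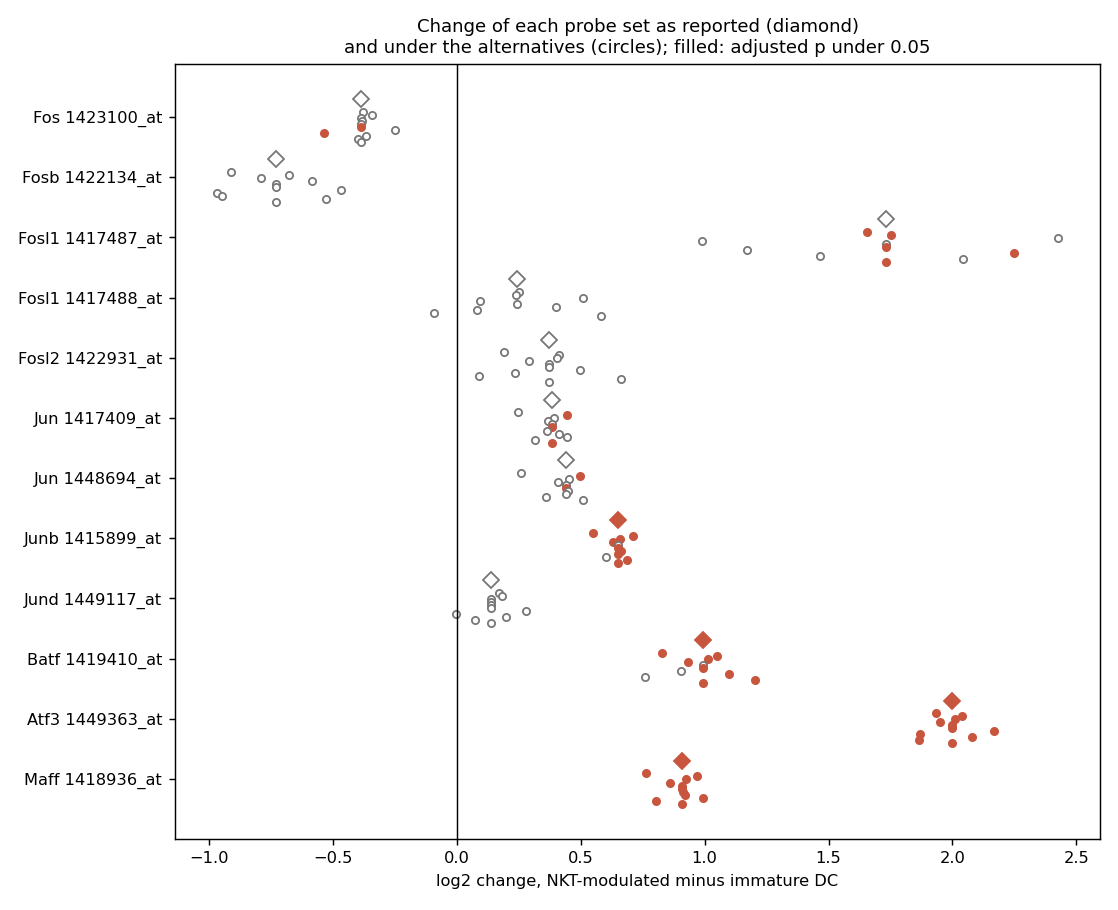
Log2 change of NKT-modulated over immature DC (horizontal axis) of each member probe set as reported (diamond) and under each alternative setting (circles, spread vertically for legibility); filled red symbols have adjusted p under 0.05. Atf3 and Maff are filled throughout, while Fosl1 1417487_at ranges from 0.99 to 2.43 and Jund reaches 0.

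The closest relatives outside the 10 genes were listed as well: Batf2, Batf3, Jdp2, Atf2, Atf7 and the other MAF genes. Of 9 measured, 3 rose and none fell, beside 5.99% of all 12393 genes called higher and 6.9% called lower when each gene is taken by its brightest probe set. Batf2, an interferon-inducible BATF, read 148.6 and 187.7 in immature DC and 1506 and 1239 in NKT-modulated DC, a log2 change of 3.07 ± 0.14 (adjusted p = 1.46e-04). Batf3, which is required for the cross-presenting class of DC, read 559.8 and 656.6 against 1862 and 1922 (change 1.74 ± 0.09, adjusted p = 2.71e-04). Thus all 3 BATF genes rose. Jdp2, whose protein pairs with JUN and represses AP-1 sites, read 579.5 and 576.4 against 1662 and 1243 (change 1.44 ± 0.15, adjusted p = 0.00302); its dimmer probe set was not called (-0.23 ± 0.58). These 3 genes passed under all 11 alternatives. The 6 uncalled genes of the list, Atf2, Atf7, Maf, Mafg, Mafk and Nrl, had changes between -0.29 and 0.19 by their brightest probe sets. Of the small MAF genes, Mafg and Mafk at -0.02 and 0.09 were not called and Maff was; the difference between them was not tested. A dimmer probe set of Atf2, noticed after its values were seen, fell by 0.54 ± 0.12 (adjusted p = 0.0369).

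Among 24 other basic leucine zipper genes measured there were 4 higher and 1 lower, beside 5.99% and 6.9% of all genes, and their median log2 change of -0.04 was that of all genes. Hlf rose by 1.94 ± 0.23 (adjusted p = 0.00438) from low signals of 44.8 and 36.4, to 191.3 and 176.7. Atf4 and Atf5, factors of the amino acid and stress response, rose by 0.50 ± 0.08 and 0.85 ± 0.14 (adjusted p = 0.0139 and adjusted p = 0.0161). Cebpd, an inflammatory C/EBP factor, fell by 0.58 ± 0.11 (adjusted p = 0.0229). Only 1 of 3 probe sets of Atf4 and 1 of 2 of Cebpd were called. Hlf kept its call under all 11 alternatives, Atf4 and Cebpd under 7 and Atf5 under 6. This list had 2 genes higher without immature replicate 1 and 1 without immature replicate 2; it had 1 without NKT-modulated replicate 1 and 2 without NKT-modulated replicate 2.

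Among 15 partner factors of AP-1 and BATF, 5 were called higher and 1 lower, beside 5.99% and 6.9% of all genes. Irf4, with which BATF binds composite elements, read 2050 and 2368 in immature DC and 4743 and 4950 in NKT-modulated DC, a log2 change of 1.14 ± 0.08 (adjusted p = 9.08e-04; 1 of its 2 probe sets called). Irf8, the other partner, read 5150 and 6156 against 9705 and 9094, a change of 0.67 ± 0.09 (adjusted p = 0.00619). Batf thus rose in the same arrays as both of its IRF partners. Irf4 passed under all 11 alternatives, while Irf8 had adjusted p up to 0.0780 and lost its call without NKT-modulated replicate 1, without NKT-modulated replicate 2 and without the intensity trend. The T cell factors Tbx21 and Ets1 rose by 3.90 ± 0.27 and 4.25 ± 0.34 (adjusted p = 7.68e-04 and adjusted p = 0.00121), from immature signals of 3.78 and 1.26 for Tbx21 and 29.1 and 76.3 for Ets1. Tbx21 thus read below the pseudocount of 16 in immature DC, and the size of its change ran from 2.29 to 6.29 over the alternatives; that of Ets1 ran from 3.46 to 4.68. Without either NKT-modulated replicate 3 genes of this list were higher.

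Of 20 measured kinases that lead to AP-1, 2 rose, 2 fell and 16 were not called, beside 5.99% of all genes called higher and 6.9% lower, a count near that background. Map3k8, the kinase TPL2 that activates the ERK pathway downstream of innate receptors, read 549.3 and 644.1 in immature DC and 1370 and 1324 in NKT-modulated DC, a log2 change of 1.30 ± 0.09 (adjusted p = 8.36e-04). Mapkapk2, the p38 substrate that stabilises cytokine RNA, rose by 0.76 ± 0.11 (adjusted p = 0.00776). Mapk14, p38 alpha itself, fell by 1.45 ± 0.08 (adjusted p = 4.00e-04) by its brightest probe set, with 1 of its 4 probe sets called, and Rps6ka3, the ERK-activated kinase RSK2, fell by 0.81 ± 0.08 (adjusted p = 0.00267), with 1 of 3 called. Map3k8, Mapk14 and Rps6ka3 passed under all 11 alternatives; Mapkapk2 did not without NKT-modulated replicate 1 or without the intensity trend, with adjusted p up to 0.0705, and then 1 kinase was higher. RNA levels do not show kinase activity.

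SRF, the ternary complex factors and the MEF2 factors control the promoters of Fos and Jun. Among 9 measured, Srf rose and 4 fell, and the median log2 change was -0.48. For this list and the regulators below, 5.99% of all genes were called higher and 6.9% lower. Mef2c read 514 and 612.9 in immature DC and 138 and 188.8 in NKT-modulated DC, a change of -1.50 ± 0.20 (adjusted p = 0.00622; 3 of 5 probe sets called), and passed under all 11 alternatives. Mef2d fell by 0.89 ± 0.13 (adjusted p = 0.00954) and Elk3, a ternary complex factor, fell by 0.68 ± 0.13 (adjusted p = 0.0275). Only 1 of 2 probe sets of Mef2d, 1 of 3 of Elk3, 1 of 2 of Srf and, below, 1 of 3 of Zfp36l2 were called. Srf itself rose by 0.63 ± 0.14 (adjusted p = 0.0444), a call kept under 4 of 11 alternatives and lost whenever any of the 4 arrays was left out. Without immature replicate 2 only 1 gene of this list was lower, and without any of the other arrays 2 were. Of 11 regulators of FOS and JUN stability, 2 fell and none rose: Zfp36l2, an RNA decay factor, by 0.80 ± 0.11 (adjusted p = 0.00705), and Itch, a ubiquitin ligase of JUN proteins, by 0.85 ± 0.12 (adjusted p = 0.00879); without NKT-modulated replicate 1 the second call was lost and 1 remained.

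Of 26 genes known as AP-1 targets, 13 were called higher and 1 lower, beside 5.99% of all genes called higher and 6.9% lower. The median log2 change was 0.37. The 4 with the smallest p were the cytokine genes Il5, Il13, Csf2 and Il4, with changes of 8.94 ± 0.13, 8.36 ± 0.13, 8.12 ± 0.14 and 7.22 ± 0.18 and adjusted p between 7.26e-06 and 2.34e-05; the first 3 read below the pseudocount of 16 in immature DC, so the size of their change depends on it. These 4 are also products of activated T cells, and the rest of the list was not sorted by cell of origin. The list was written with earlier results of these data known, and its count is a description of these genes. Among 22 other immediate early genes 8 rose and 2 fell (median 0.14), beside the same shares of all genes. Nr4a1, an orphan nuclear receptor, rose by 3.80 ± 0.16 (adjusted p = 1.11e-04), Dusp2, a MAP kinase phosphatase, by 2.18 ± 0.19, Plk3 by 1.33 ± 0.12 and Ier3 by 0.98 ± 0.09, the last 3 with adjusted p = 0.00153, 0.00191 and 0.00166.

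**Figure D4:**
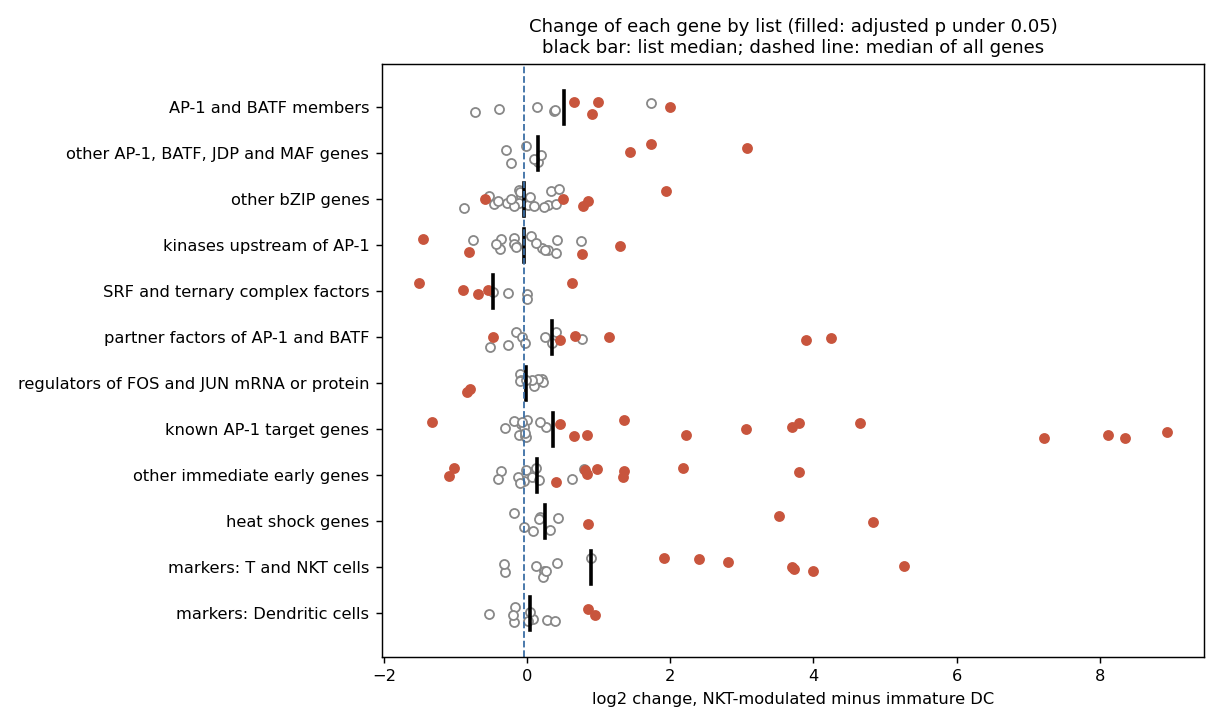
Log2 change of NKT-modulated over immature DC (horizontal axis) of each gene by its brightest probe set, grouped by list; filled red points have adjusted p under 0.05, black bars mark list medians and the dashed line the median of all genes at -0.04. The median of the 10 members is 0.52, and the T and NKT cell markers reach 5.26.

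Markers of T and NKT cells moved with these results. Of 15 measured, 7 rose and none fell, beside 5.99% of all genes called higher and 6.9% lower. The summed signal of the list was 1189 and 1183 in immature DC and 6111 and 4404 in NKT-modulated DC. Of the 15, 4 stayed below a signal of 64 on all 4 arrays: the coreceptor genes Cd4, Cd8a and Cd8b1 and the adhesion gene Cd2. Brighter markers were uncalled too: Cd5, Cd6, Zap70 and Zbtb16 had changes of 0.23, 0.23, 0.26 and 0.13 by their brightest probe sets. Zap70 read between 469.4 and 622.4 on the 4 arrays. For Zap70 and Zbtb16, 1 of 2 probe sets was called higher. Cd3g, a chain of the T cell receptor complex, rose by 5.26 ± 0.20, Thy1 by 3.996 ± 0.19, Cd3d by 3.73 ± 0.28 and Cd3e by 3.70 ± 0.35, with adjusted p between 9.18e-05 and 0.00200. Cd3d and Cd3e read below the pseudocount in immature DC, and over the alternatives their changes ran from 2.27 to 5.38 and from 2.35 to 4.98. NKT-modulated replicate 1 had the higher summed T and NKT signal of its group. It also had the higher deposited signal of Batf, Junb, Fos, Fosb, Fosl2, both Fosl1 probe sets and the dimmer Jun probe set. Atf3, Maff, Jund and the brighter Jun probe set were higher on replicate 2. After quantile normalization Fos too was higher on replicate 2, at 11.82 and 11.85 on the log2 scale. With 2 arrays a gene must be higher on 1 of them, so this order says nothing on where the RNA came from. T cells express AP-1 and BATF genes as well, and in bulk RNA more cells of a type and more RNA per cell cannot be told apart. The part of T lineage RNA in the member changes was not tested.

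The labelled cell type was checked on defining markers of DC. Itgax, the gene of CD11c, read 5442 and 5537 in immature DC and 5253 and 4643 in NKT-modulated DC, and H2-Ab1, of MHC class II, read 10100 and 9023 against 11230 and 9895; neither was called (adjusted p = 0.204 and adjusted p = 0.631). Flt3, the receptor of the DC growth factor FLT3L, was dimmer, at 531.5 and 714.9 against 332.8 and 401.7, a log2 change of -0.54 ± 0.16 (adjusted p = 0.0875), and the DC factor Zbtb46 read between 380.3 and 438.4 on the 4 arrays (0.27 ± 0.12, adjusted p = 0.233). These 4 genes were named as a check of the labelled cells. Of the macrophage genes, Csf1r, Cd14 and Adgre1 were brighter than Flt3 and Zbtb46 on all 4 arrays. C1qb was not brighter throughout. In NKT-modulated DC it read 417.6 and 460.5, against 438.4 and 405.8 for Zbtb46. Csf1r read 11980 and 9675 against 12410 and 11080, Cd14 5084 and 5233 against 3561 and 3651, and Adgre1 3081 and 3115 against 2859 and 2760. Signals of different probe sets were not calibrated against each other, so this order is a description. The check does not separate DC from macrophages. For the marker counts that follow, 5.99% of all genes were called higher and 6.9% lower. Of 11 DC genes, none fell and the maturation markers Cd83 and Cd86 rose. Their changes were 0.94 ± 0.08 and 0.85 ± 0.10 (adjusted p = 0.00126 and adjusted p = 0.00427). Ccr7 of the same list was not called (0.39 ± 0.12, adjusted p = 0.113). Of 6 B cell markers 1 rose, Cd79b. Of 8 macrophage markers 1 rose and 5 fell, with 0 falling without NKT-modulated replicate 1 and 2 without NKT-modulated replicate 2. Of 10 neutrophil markers 2 rose and 1 fell, with 1 each way without immature replicate 2 and none without any of the other arrays.

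Heat shock genes respond to stress and handling, as immediate early genes do. Of 10 measured, 3 rose, none fell and 7 were not called, beside 5.99% of all genes called higher. Hspa1a and Hspa1b, near-identical copies that probe sets may not separate, read 85.1 and 110 against 3871 and 2465, and 356.9 and 387.7 against 5055 and 3421, log2 changes of 4.83 ± 0.21 and 3.51 ± 0.16 (adjusted p = 1.23e-04 and adjusted p = 1.43e-04). Hsph1 rose by 0.86 ± 0.11 (adjusted p = 0.00592), a call lost without NKT-modulated replicate 1 and without the intensity trend. Whether stress or handling bears on the change of Atf3, Junb or the other members was not tested.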

How the data were processed

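RNA of 4 samples was measured on Affymetrix mouse expression arrays. The authors analysed the images with GCOS, per the submitters' processing notes, and deposited 1 linear intensity per probe set and array on a linear scale; how probes were summarised and scaled is not stated in those notes. A log transformation that the design text mentions is not seen in these intensities. Design text and labels differ on labelling cycles, and the text names a larger array type and triplicates, where 2 arrays a group were analysed here. Their scale and the number of arrays limit the precision, and no detection calls were used.

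Controls were left out, and log2(signal + 16) was quantile normalized and fitted in limma 3.58.1 (R 4.3.3; lmFit, eBayes with an intensity trend, two-sided; 2 residual and 4.13 prior degrees of freedom) over 22626 probe sets. Calls have a Benjamini-Hochberg adjusted p under 0.05. The steps were tested on simulated data. Of the probe sets, 20380 had 1 symbol, 691 several and 1555 were unnamed here; 20351 symbols were updated by gene ID through the RefSeq table. Counts of list genes use the brightest probe set of a gene. A change on this scale understates that of genes near the pseudocount of 16.

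The 11 alternatives were no further normalization, cyclic loess, pseudocounts of 1 and 64, no intensity trend, a filter on mean signal under 64, leaving out each array, and a fit over genes by their brightest probe set. Named are all members with all probe sets and, from each list, up to 4 called genes with the smallest p. Itgax, H2-Ab1, Flt3, Zbtb46, Cd79b, Ccr7, Csf1r, Adgre1, C1qb, Klf4, Btg2, uncalled Atf and Maf genes and uncalled T cell markers are named outside that rule. Members and lists were chosen with earlier results of these data known.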

Additional observations from a re-analysis of the deposited data

How the results depend on the processing

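Member calls depended on the variance model, the normalization and the arrays. Of the 12 member probe sets, 4 were called higher as reported, 7 after cyclic loess, 7 after leaving out probe sets of mean signal under 64, 2 without the intensity trend and 1 at an adjusted p of 0.001; leaving out each array gave 2 to 5. None was called lower as reported, 1 (Fos) with the filter on mean signal, and 0 to 1 with an array left out. Over all probe sets 1212 were higher and 1289 lower as reported, 625 and 420 without the intensity trend, and 821 higher in the fit over genes, which holds fewer features; leaving out each array gave 624 to 822 higher and 446 to 625 lower. With fewer arrays the fit has less residual freedom; otherwise the cause was not tested. In a group left with 1 array that array is assumed to vary like the other group.

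Signs changed for 2 member probe sets, neither called: Fosl1 1417488_at ranged from -0.0915 to 0.58 and Jund from -0.0018 to 0.28 when arrays were left out in turn. Without the intensity trend 14 of 28 list counts moved by over 1.5 times, and without NKT-modulated replicate 1 12 did. Over the alternatives the count of other bZIP genes higher ran from 1 to 4 and lower from 0 to 2 (4 and 1 as reported), kinases higher from 1 to 4 (2), SRF and related factors higher from 0 to 1 (1) and lower from 1 to 5 (4), partner factors higher from 3 to 6 (5) and lower from 0 to 1 (1), regulators lower from 0 to 2 (2), other immediate early genes higher from 5 to 9 (8) and lower from 1 to 2 (2), macrophage markers lower from 0 to 5 (5), neutrophil markers higher from 0 to 3 (2) and lower from 0 to 1 (1), and DC markers higher from 1 to 2 (2) and lower from 0 to 1 (0). Relatives of the BATF and JUN genes stayed at 3 higher, and AP-1 targets at 10 to 13 higher. No paired analysis was possible because the labels give the arrays of the 2 groups no shared number. Signals near the bottom of the range, as for Fosl1, limit what these arrays can show.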
